A study of Mus musculus with 12 samples.

Results

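The amino acid transporters described here are Slc7a11, Slc3a2, Slc3a1, Slc7a5, Slc7a1, Slc7a2, Slc38a2, Slc38a4, Slc43a1 and Slc1a4, taken from the deposited table by gene symbol. They are 10 of the 24296 named genes in that table and hold 38 of its 169430 transcripts. The genes were chosen by their measured levels in these same livers, so their values are given as a description, with no p-values. Where they are counted against the cutoffs of a fit across all genes, the counts describe the choice of genes and test nothing.

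RNA from the livers of male C57/BL6N mice was sequenced in 4 groups of 3 livers each. The control group is labelled as wild type with no CCl4. Mice of the model, silibinin and phloridzin groups all received CCl4, a solvent that injures hepatocytes and leads to liver fibrosis, in olive oil at 5 mL/kg, 2 times per week for 8 weeks. The silibinin group also received silibinin and the phloridzin group phloridzin, here the high-dose group of the study, from week 5 on. No source gives the age of the mice, and nothing says that livers were pooled.

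Heteromeric amino acid transporters pair a heavy chain of the SLC3 family, which carries the complex to the cell surface, with a light chain of the SLC7 family, which moves the amino acids. Slc3a2 encodes the CD98 heavy chain. With the light chain xCT, the product of Slc7a11, it takes up cystine in exchange for glutamate and so feeds glutathione synthesis, and Slc7a11 is a known target gene of the transcription factors ATF4 and NRF2. Slc3a1 encodes rBAT, which pairs with the light chain Slc7a9 to take up cystine and basic amino acids in kidney tubule and small intestine.

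Levels are in FPKM (fragments for each kilobase of transcript in each 1 M fragments), and the level of a gene is the sum over its transcripts. Depth was worked out from the steps between low FPKM values, of which at least 98.6% came out as whole fragments within 0.05 of a fragment. It came to 105.2 to 109.6 M fragments in the control livers, 83.7 to 101 M in the model livers, 107 to 111 M in the silibinin livers and 98.5 to 105 M in the phloridzin livers. At these depths 3 fragments of the coding Slc7a11 transcript correspond to between 0.00293 and 0.00389 FPKM, and 3 fragments of the Slc3a1 transcript to between 0.0119 and 0.0158 FPKM, by counting error alone.

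In 4 livers the closest liver by correlation over the genes tested was from another group. Phloridzin 1 correlated most closely with silibinin 2 (Pearson r = 0.936), and its correlations with the other phloridzin livers were 0.918 and 0.922. This liver held 85.1 FPKM of Col1a1, a fibrillar collagen gene, 196 FPKM of Gclc, 39.3 FPKM of Nqo1 and 159 FPKM of Srxn1, and the other phloridzin livers held at most 22.0, 37.1, 7.11 and 14.2 FPKM of these genes. Silibinin 3 correlated most closely with phloridzin 2 (r = 0.953, against 0.946 and 0.950 within its group) and held 16.2 FPKM of Col1a1, where silibinin 1 and 2 held 50.9 and 49.8 FPKM. Phloridzin 2 and 3 in turn were closest to silibinin 3 (r = 0.953 and 0.952), with 0.950 between each other. In Gclc, Nqo1 and Srxn1 silibinin 3 lay between silibinin 1 and 2. Where leaving out phloridzin 1 or silibinin 3 moved a change given below for 1 of the 10 transporter genes by over 1.5 times, the value without that liver is given too.

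Changes were measured with limma on log2(FPKM + 1), a scale that understates the change of genes with low levels, and genes are called differentially expressed (DE) where the adjusted p was under 0.05 and the size of the log2 fold change was over 1. All 10 transporter genes were among the 13158 genes whose mean level over the 12 livers reached 0.5 FPKM. Slc7a11 and Slc7a1 reached it only through the model livers (the other 9 livers averaged 0.0863 and 0.496 FPKM), and Slc3a1 only through the phloridzin livers and silibinin 3, so counts over the 10 genes support nothing by themselves.

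The median gene was higher by 0.34 on the log2 scale in the model than in the control livers, and lower in the silibinin and phloridzin livers than in the model livers (-0.15 and -0.11). After scaling the livers by median ratios these medians were 0.01, 0.01 and 0.02. Of the DE genes 89.7% were higher in model than in control livers, and 53.9% after scaling. For silibinin against model 18.6% were higher, and 44.0% after scaling, and for phloridzin against model 17.1%, and 36.8% after scaling. Changes of the 10 transporter genes between model and control livers and between drug and model livers are therefore also given relative to the median gene.

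Slc3a2 lies at chr19:8706882-8723369 on the minus strand (mm10). It stood at 18.4, 16.0 and 15.5 FPKM in control livers 1, 2 and 3, at 54.6, 81.3 and 82.7 FPKM in the model livers, at 12.8, 17.4 and 15.6 FPKM in the silibinin livers and at 23.0, 18.7 and 17.3 FPKM in the phloridzin livers. The 3 model livers were the highest of all 12, and the other groups overlapped each other. In bulk tissue, fewer cells of a type and less RNA per cell cannot be told apart, here and below. The group mean went from 16.6 ± 1.54 FPKM (SD, n = 3) in control to 72.9 ± 15.8 FPKM in model livers, a log2 fold change of 2.04 (SE 0.185), or 1.71 relative to the median gene. Silibinin against model was -2.17 and phloridzin against model -1.82 (SE 0.185 each), with -2.02 and -1.71 relative to the median gene. Of its 7 transcripts, ENSMUST00000010239 took between 87.8% and 97.5% of the gene in every liver.

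Slc3a1, at chr17:85028347-85064243 on the plus strand, has a single transcript in the table, ENSMUST00000024944. Its level was 0.0247, 0.056 and 0.0752 FPKM in the control livers, 0.0363, 0.0128 and 0.0606 FPKM in the model livers, 0.0488, 0.0196 and 113 FPKM in silibinin livers 1, 2 and 3, and 43.4, 83.7 and 142 FPKM in phloridzin livers 1, 2 and 3. The gene was thus near 0 or high, with no level in between: all phloridzin livers and silibinin 3 were high, and all control and model livers with silibinin 1 and 2 were near 0. In fragments, the low livers held 3 to 19 and the high livers 10064 to 31757. Phloridzin against model was 6.29 (SE 1.43) and phloridzin against control 6.27, and model against control was -0.02. Relative to the median gene, phloridzin against model was 6.40 and model against control -0.36.

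The drug comparison of Slc3a1 rested on silibinin 3. Silibinin against model was 2.26 (SE 1.43) with all livers, -0.00 without silibinin 3 and 3.399 without silibinin 2, and 2.41 relative to the median gene. Phloridzin against silibinin was 4.04 (SE 1.43) with all livers and 6.30 without that liver. Phloridzin against model was 6.73 without phloridzin 1 and 5.89 without phloridzin 3.

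An assembled transcript of the table, with no position given, ran opposite to Slc3a1. It was picked after its values were seen, as the only 1 of 15069 assembled transcripts with a mean of at least 0.5 FPKM whose Pearson r with Slc3a1 over the 12 livers was at or below -0.9 (r = -0.93). The transcript, MERGE.35349.41, stood at 49.9, 13.3 and 63.4 FPKM in the control livers, 64.1, 80.4 and 77.5 FPKM in the model livers, 60.2, 61.2 and 4.31 FPKM in the silibinin livers and 2.01, 0.633 and 1.99 FPKM in the phloridzin livers. Every liver that was high in Slc3a1 was low in this transcript, and the reverse. Its assembled name is shared by 45 transcripts, and no assembled transcript of the table has a position, so whether it lies at Slc3a1 cannot be told from the table. Assignment of fragments between the 2 names was not tested, and the level of Slc3a1 is uncertain to that extent. Assembled transcripts as a whole took 25.5 to 29.8% of all FPKM in the control livers and 19.4 to 21.3% in the others.

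Of the transcripts with a position at the Slc3a1 gene, 1 showed a smaller split of the same direction. NONMMUT030927.2, a NONCODE transcript on the other strand, stood at 1.54 FPKM in silibinin 3 and 1.56, 1.48 and 1.03 FPKM in the phloridzin livers, and at 1.75 to 2.51 FPKM in the other livers, so every liver high in Slc3a1 was below every liver low in it. Prepl, an overlapping gene on the same strand as that transcript, summed to between 0.86 and 8.89 FPKM, highest in model 3 and phloridzin 1. The strand setting of the counting is not given in the sources used here, so fragments of Slc3a1 and of genes that overlap it on the other strand cannot be told apart.

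Markers of kidney and intestine, in which rBAT is best known, are given for comparison, and their part in the Slc3a1 level was not tested. Of 15 kidney tubule and glomerulus genes 11 were in the table, all 11 under 1 FPKM in every liver and 6 of them under 0.1 FPKM, with a sum of 0.663 to 0.821 FPKM in control, 0.777 to 1.44 FPKM in model, 1.39, 0.961 and 0.856 FPKM in silibinin and 2.04, 0.849 and 1.47 FPKM in phloridzin livers. Of the livers high in Slc3a1, phloridzin 1 and 3 held the highest sums of all livers. Silibinin 3 and phloridzin 2, also high in it, were below silibinin 1 and 2, which were near 0 in it. The most abundant of them was Lrp2. Of 12 intestinal epithelium genes 9 were in the table, and their sum was 91.2 to 307 FPKM. Apoa4 (42.0 to 253 FPKM), Fabp2 (11.4 to 31.1 FPKM) and Anpep (19.0 to 35.8 FPKM), all of which the liver expresses too, made up nearly all of it in every liver. The other 6 stayed under 1 FPKM in every liver, Alpi, Lct and Vil1 at or below 0.135 FPKM. Slc7a9, the light chain that pairs with rBAT, was at or below 0.0734 FPKM in every liver, above 0 in silibinin 3, the phloridzin livers and model 1, and at 0 in all others.

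**Figure D1:**
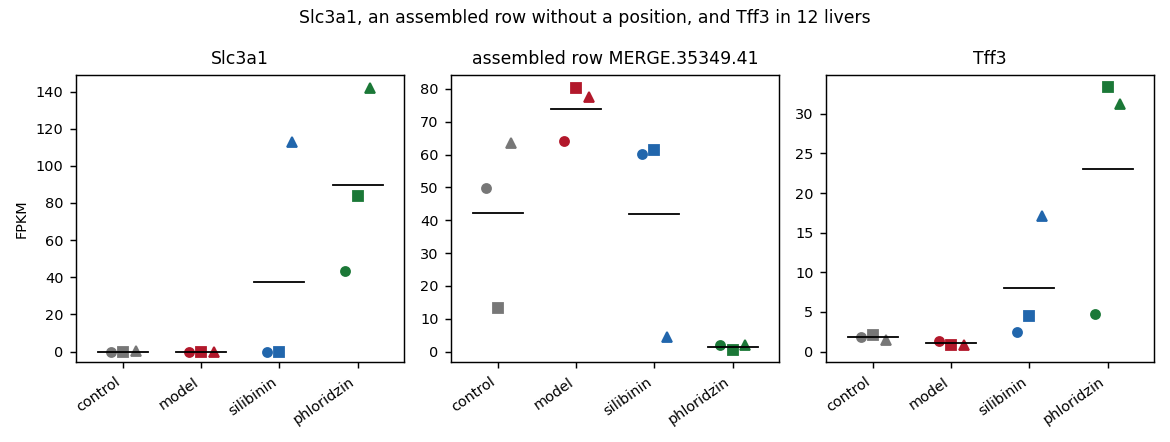
FPKM (vertical axis, linear) of Slc3a1, of the assembled transcript MERGE.35349.41 and of Tff3 in each liver of the 4 groups (circle, square and triangle for replicates 1, 2 and 3, line for the group mean). Silibinin 3 and the phloridzin livers are at 43.4 FPKM or more for Slc3a1 and at 4.31 FPKM or less for the assembled transcript.

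Slc7a11, the cystine and glutamate exchanger light chain, lies at chr3:50364938-50443614 on the minus strand. Its 2 matches to the C/EBP-ATF response element core, a motif to which ATF4 and its partners bind, lie just upstream of the gene start, so 140 bases of the promoter are shown, from 150 to 11 bases before the RefSeq start (chr3:50443624-50443763, minus strand, GRCm38.p6), with the matches in capitals.

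Slc7a11 promoter: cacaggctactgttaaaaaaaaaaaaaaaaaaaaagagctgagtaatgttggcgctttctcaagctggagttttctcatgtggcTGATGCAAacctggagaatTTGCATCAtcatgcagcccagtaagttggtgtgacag

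The first match, TGATGCAA, is on the gene's strand 66 to 59 bases before the start, and the second, TTGCATCA, is on the other strand 47 to 40 bases before it. The motif searched on both strands was TGATGNAA, found in the 250 upstream bases of 3.45% of 32851 RefSeq promoter windows. The antioxidant response element core, TGACNNNGC, to which NRF2 binds, was found in 10.2% of the windows and was not matched in the Slc7a11 window. Windows were given for 8 of the 10 transporter genes, and 4 of these had a match: Slc7a11 for the first motif, and Slc7a1, Slc38a2 and Slc43a1 for the second. A match is a description of the letters, not evidence of a bound site.

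Slc7a11 was near 0 in all but the model livers. The control livers held 0.024, 0 and 0.00792 FPKM, the model livers 5.21, 8.51 and 6.20 FPKM, the silibinin livers 0.128, 0.0196 and 0.194 FPKM, and the phloridzin livers 0.34, 0.0215 and 0.0416 FPKM. The model group did not overlap any other group, and the control, silibinin and phloridzin groups overlapped each other. Its coding transcript corresponded to 1799 to 5262 fragments in the model livers and to 0, 0 and 8 fragments in the control livers, and control 2 is listed at 0 for all 3 transcripts. On the log2 scale the model group was 2.90 above control (SE 0.165), silibinin was -2.76 and phloridzin -2.74 against model, and relative to the median gene these were 2.56, -2.61 and -2.63.

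The 3 transcripts of Slc7a11 took different shares in the model livers. The coding transcript ENSMUST00000029297 held 2.33, 5.62 and 5.58 FPKM, which is 44.8, 66.1 and 89.9% of the gene. The retained intron transcript ENSMUST00000142932 held 2.70, 1.75 and 0.531 FPKM and so led in model 1. A second retained intron transcript, ENSMUST00000193838, held 0.179, 1.13 and 0.097 FPKM.

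Slc7a5, at chr8:121881150-121907694 on the minus strand, encodes LAT1, a light chain that exchanges large neutral amino acids such as leucine. Its level was 2.08, 1.21 and 1.82 FPKM in control livers, 5.47, 5.64 and 5.15 FPKM in model livers, 1.63, 1.64 and 1.33 FPKM in silibinin livers and 1.89, 1.34 and 1.20 FPKM in phloridzin livers. The model livers formed a narrow band above all others, and the remaining 3 groups overlapped. The log2 fold change was 1.26 for model against control, -1.34 for silibinin against model and -1.38 for phloridzin against model (SE 0.154 each). Relative to the median gene these were 0.92, -1.19 and -1.27, and with median-ratio scaling the first was 0.93, both under the fold cutoff's value of 1 for model against control. The coding transcript ENSMUST00000045557 took 79.1 to 96.8% of the gene.

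**Figure D2:**
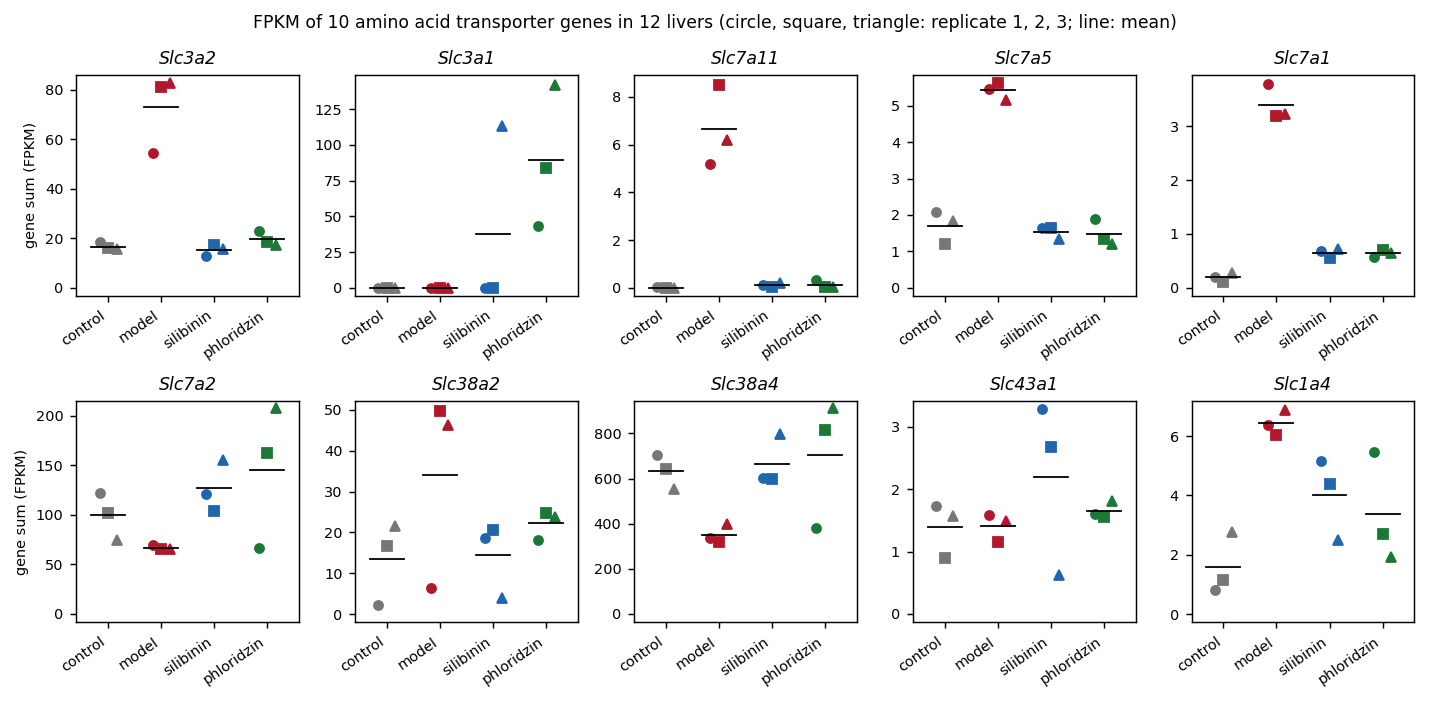
Level of each of the 10 transporter genes in FPKM (vertical axis, linear and separate for each gene) in the 12 livers by group; circle, square and triangle are replicates 1, 2 and 3 and the line is the group mean. The model livers stand above the control livers for Slc3a2, Slc7a11, Slc7a5, Slc7a1 and Slc1a4, and Slc3a1 is high in the phloridzin livers and silibinin 3.

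Slc7a1 and Slc7a2 encode cationic amino acid transporters, which carry arginine, lysine and ornithine. Slc7a1, the widely expressed form, at chr5:148327410-148399904 on the minus strand, was at 0.194, 0.116 and 0.282 FPKM in control, 3.78, 3.20 and 3.22 FPKM in model, 0.678, 0.55 and 0.725 FPKM in silibinin and 0.562, 0.706 and 0.646 FPKM in phloridzin livers. Its groups formed steps: control lowest, both drug groups between and overlapping each other, and model highest. Model against control was 1.88, silibinin against model -1.41 and phloridzin against model -1.42 (SE 0.107 each), with 1.54, -1.26 and -1.31 relative to the median gene. The drug groups were 0.46 and 0.45 above control, or 0.31 and 0.27 relative to the median gene, under the fold cutoff, and every drug-treated liver was above every control liver. With 0.1 FPKM added in place of 1 before taking logs, these changes were 1.37 and 1.35 and past the cutoffs. The coding transcript ENSMUST00000048116 took 55.4 to 96.3% of the gene, and retained intron transcripts most of the rest.

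Slc7a2, the form abundant in hepatocytes, lies at chr8:40862396-40922308 on the plus strand. It stood at 122, 102 and 74.5 FPKM in control, 69.1, 65.7 and 65.6 FPKM in model, 121, 104 and 155 FPKM in silibinin and 66.4, 163 and 208 FPKM in phloridzin livers. The model livers lay below every control and silibinin liver, and phloridzin 1 lay among the model livers. Model against control was -0.54 (SE 0.359), or -0.88 relative to the median gene, silibinin against model 0.89 and phloridzin against model 0.96, none past the cutoffs. Relative to the median gene the drug changes were 1.05 and 1.07. Phloridzin against model was 1.45 without phloridzin 1 and 0.63 without phloridzin 3.

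The 5 transcripts of Slc7a2 are all coding, and the share of the longest varied more between livers of the model and silibinin groups than of the control and phloridzin groups. This transcript, ENSMUST00000057784, took 65.4 to 69.8% of the gene in control livers, 28.9, 76.9 and 36.3% in model livers, 4.19, 46.9 and 43.5% in silibinin livers and 33.4 to 37.8% in phloridzin livers. ENSMUST00000118432 took 9.15 to 17.9% in control livers, 49.2, 8.82 and 38.8% in model livers, 35.02, 25.4 and 29.8% in silibinin livers and 32.2 to 37.0% in phloridzin livers. Silibinin 1 alone held a high level of ENSMUST00000117077, 32.7 FPKM, where the other livers held 0.0563 to 0.252 FPKM. How fragments were split over overlapping transcripts is an estimate of the authors' software, so these shares are uncertain.

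**Figure D3:**
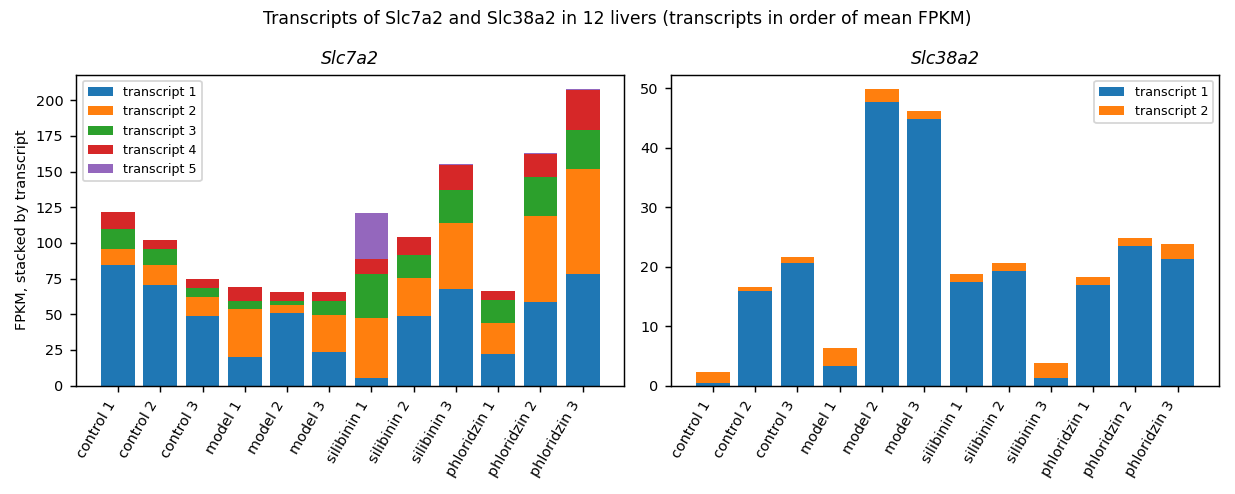
FPKM (vertical axis, linear, stacked by transcript) of the transcripts of Slc7a2 and Slc38a2 in each of the 12 livers. Silibinin 1 holds 32.7 FPKM of a Slc7a2 transcript that is near 0 elsewhere, and the coding transcript of Slc38a2 is low in control 1, model 1 and silibinin 3.

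Slc38a2 and Slc38a4 encode sodium-coupled carriers of small neutral amino acids. Slc38a2, at chr15:96687392-96699730 on the minus strand, was at 2.24, 16.6 and 21.6 FPKM in control, 6.36, 49.8 and 46.3 FPKM in model, 18.7, 20.7 and 3.82 FPKM in silibinin and 18.2, 24.8 and 23.9 FPKM in phloridzin livers. Model 2 and 3 were the highest livers, but control 1, model 1 and silibinin 3 were far below the rest of their groups, so all groups overlapped. Model against control was 1.26 (SE 0.90), and between 0.39 without control 1 and 2.17 without model 1. Silibinin against model was -1.03, and between -1.95 without model 1 and -0.33 without silibinin 3. Phloridzin against model was -0.17, with -0.04 without phloridzin 1, and it turned in direction over the leave-outs, from -1.09 without model 1 to 0.31 without model 2. Relative to the median gene the changes were 0.92, -0.88 and -0.06. None was past the cutoffs.

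The low livers of Slc38a2 were low in its coding transcript only. ENSMUST00000023099 held 0.479 FPKM in control 1, 3.20 FPKM in model 1 and 1.23 FPKM in silibinin 3, and 15.9 FPKM or more in every other liver. The retained intron transcript ENSMUST00000229141 stayed between 0.698 and 3.16 FPKM and was not low in these livers, with 1.76, 3.16 and 2.59 FPKM. Whether fragments of the coding transcript were given to another name there was not tested.

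Slc38a4, at chr15:96994820-97055956 on the minus strand, is imprinted and mainly expressed in liver, and it had the highest level of the 10 genes. Control livers held 703, 643 and 554 FPKM, model livers 337, 319 and 397 FPKM, silibinin livers 601, 599 and 797 FPKM and phloridzin livers 379.6, 813 and 914 FPKM. As with Slc7a2, the model livers lay below every control and silibinin liver, and phloridzin 1 lay among them. The change in the model group was -0.85 (SE 0.298), or -1.19 relative to the median gene. Silibinin against model was 0.92 and phloridzin against model 0.91, or 1.07 and 1.02 relative to the median gene. Without phloridzin 1, phloridzin against model was 1.302. Of its 5 transcripts, all coding, ENSMUST00000230086 took 70.4 to 79.1% of the gene in every liver.

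Slc43a1, at chr2:84838850-84863594 on the plus strand, encodes LAT3, a carrier of branched-chain and other large neutral amino acids that needs no heavy chain. It was at 1.73, 0.894 and 1.57 FPKM in control, 1.59, 1.15 and 1.49 FPKM in model, 3.28, 2.67 and 0.63 FPKM in silibinin and 1.61, 1.55 and 1.81 FPKM in phloridzin livers. Silibinin held both the highest livers and the lowest, and all groups overlapped. Model against control was 0.02 (SE 0.304), and -0.24 with scaling, and silibinin against model was 0.29, and between 0.03 without silibinin 1 and 0.72 without silibinin 3. Relative to the median gene these were -0.32 and 0.45. The leading one of its 6 transcripts differed between livers: ENSMUST00000146816 took 78.4% of the gene in control 2, and ENSMUST00000111625 56.0% in model 3 and 52.9% in phloridzin 3.

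Slc1a4, at chr11:20302180-20332713 on the minus strand, encodes an exchanger of alanine, serine, cysteine and threonine. The control livers held 0.794, 1.15 and 2.77 FPKM, the model livers 6.36, 6.05 and 6.88 FPKM, the silibinin livers 5.15, 4.40 and 2.49 FPKM and the phloridzin livers 5.48, 2.71 and 1.94 FPKM. The model livers were the highest, and both drug groups lay below them and overlapped the control group at their low end. Model against control was 1.60 (SE 0.34), silibinin against model -0.61 and phloridzin against model -0.85. Without silibinin 3 the silibinin change was -0.37, and without phloridzin 1 the phloridzin change was -1.17. Relative to the median gene the changes with all livers were 1.27, -0.45 and -0.74. The transcript ENSMUST00000004634 took 75.3% or more of the gene in every liver.

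Counted over the 10 genes, 5 were past the cutoffs and higher in the model than in the control group (Slc7a11, Slc3a2, Slc7a5, Slc7a1 and Slc1a4) and 0 lower, where 9.42% of all genes tested were DE and higher and 1.08% DE and lower. Silibinin against model had 0 higher and 4 lower (Slc7a11, Slc3a2, Slc7a5 and Slc7a1), where 0.745% of all genes were DE and higher and 3.25% DE and lower. Phloridzin against model had 1 higher (Slc3a1) and the same 4 lower, where 0.6% of all genes were DE and higher and 2.92% DE and lower. With median-ratio scaling model against control again had 5, but with Slc38a4, lower at -1.298, in place of Slc7a5, and the genes of the drug comparisons against model were the same. After scaling, 529 of the 13158 genes were DE and higher in model than in control livers and 453 DE and lower. In these comparisons the counts were 5, 4 and 5 also at limma's unadjusted p under 0.05 with the fold cutoff kept. That setting can only add genes, so it is no check on those counted. Since the genes were selected on these livers, the counts are no more than a description. Both drug comparisons share the model livers, so their values are not independent of each other.

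Between the drug groups 0 of the 10 genes were past the cutoffs in either direction, where 0.0076% of all genes were DE and higher with phloridzin and 0.0152% DE and lower. With limma's unadjusted p under 0.05 and the fold cutoff kept, the count was 1. It was 1 without silibinin 3 as well, where Slc3a1 stood 6.30 higher. Silibinin against control had 0 in either direction, where 1.74% of all genes were DE and higher and 0.243% DE and lower. The count was 0 also at limma's unadjusted p under 0.05 with the fold cutoff kept. Without the fold cutoff Slc7a1 was called there and in phloridzin against control. Phloridzin against control had 1 higher, Slc3a1, and 0 lower, where 2.74% of all genes were DE and higher and 0.289% DE and lower. Slc3a1 was no longer past the cutoffs against control when any 1 control or phloridzin liver was left out, with changes of 5.86 to 6.71, so the count was then 0. Against model it was no longer past them without model 2, phloridzin 2 or phloridzin 3, and the count was 4. Without phloridzin 1 the count against model was 8, as Slc7a2, Slc38a4 and Slc1a4 were then past the cutoffs too.

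The median log2 fold change of the 10 genes was 1.26 for model against control, beside 0.34 for all genes tested. For silibinin against model it was -0.82 beside -0.15, for phloridzin against model -0.51 beside -0.11, and for phloridzin against silibinin 0.00 beside 0.03. Against control it was 0.27 beside 0.16 with silibinin and 0.32 beside 0.18 with phloridzin.

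**Figure D4:**
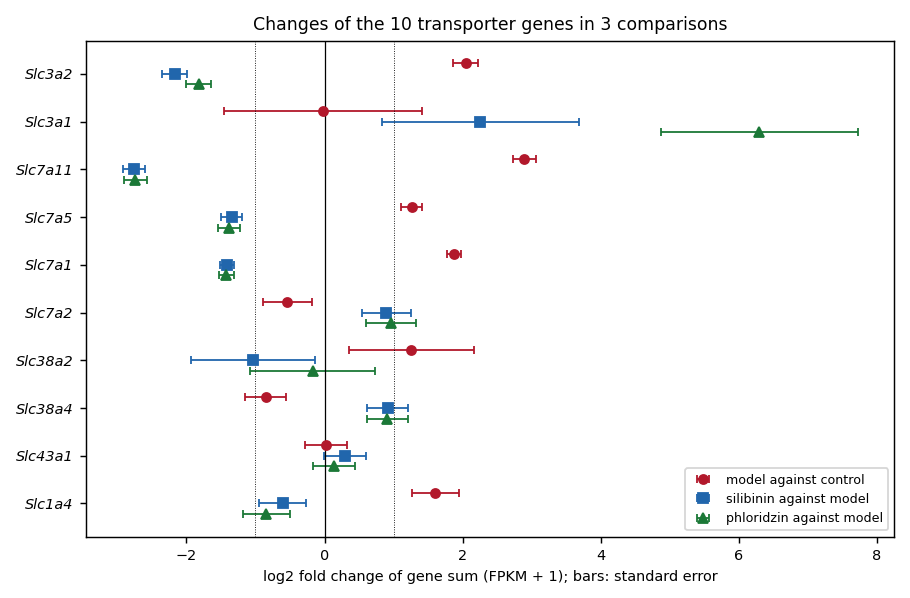
Log2 fold change of gene sums (horizontal axis, FPKM + 1) of the 10 transporter genes for model against control, silibinin against model and phloridzin against model, with bars for the standard error and dotted lines at 1 and -1. Slc7a11 is at 2.90, -2.76 and -2.74, and Slc3a1 has the widest bars (SE 1.43).

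Correlations over the 12 livers are given as a description, since the livers of a group share their treatment. Slc7a11 correlated with Slc3a2 (Pearson r = 0.98), Slc7a5 (0.97) and Slc7a1 (0.96), all high in the model livers. Slc7a2 and Slc38a4 correlated with each other (0.93) and inversely with Slc7a11 (-0.65 and -0.81). Slc1a4 had an r of 0.68 with Slc7a11, and Slc3a1, Slc38a2 and Slc43a1 had -0.36, 0.34 and -0.19.

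The 5 genes most like Slc7a11 over the 12 livers were Sprr1a (r = 0.995), Gm8818 (0.994), Tnfaip6 (0.993), Wfdc3 (0.990) and Maff (0.989). Sprr1a held 33.8, 58.9 and 28.4 FPKM in the model livers and at most 0.292 FPKM elsewhere, and Maff 7.28, 12.5 and 10.6 FPKM against 0.437 to 1.10 FPKM. The genes most like Slc3a1 were Msh3 (0.927), Tff3 (0.907), Slc22a30 (0.891), Gas2 (0.890) and Cib3 (0.866). Tff3 held 17.1 FPKM in silibinin 3 and 4.69, 33.3 and 31.3 FPKM in the phloridzin livers, against 0.88 to 4.52 FPKM in the other livers. Msh3, in contrast to Slc3a1, had no liver near 0 and ranged from 3.53 to 7.83 FPKM.

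Amino acid transporters outside the 10 genes were taken by family: 61 genes of the SLC7, SLC38, SLC36, SLC1, SLC6, aromatic, lysosomal and mitochondrial carriers, of which 56 were in the table and 31 were tested. The 10 genes, chosen by their levels in these livers, are left out of these families, and earlier results were known. Counts and medians of the remaining genes depend on that choice and are a description. In the model group 5 were DE and higher than in control and 1 lower, beside 9.42% and 1.08% of all genes. The glutamate carrier Slc1a2, in the normal liver a gene of hepatocytes around the central vein, fell from 74.8, 40.5 and 34.8 FPKM in the control livers to 0.123, 0.0085 and 0.306 FPKM in the model livers (log2 fold change -5.41, SE 0.672, adjusted p = 0.000337 by limma). It was below every control liver in all 9 CCl4-treated livers, at 0.138, 0.83 and 3.82 FPKM with silibinin (-4.48 against control, adjusted p = 0.00704) and at 0.0118, 3.72 and 5.32 FPKM with phloridzin (-3.96, adjusted p = 0.00899). The call with phloridzin was lost when only the control and phloridzin livers were fitted.

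The carriers that rose in the model group were the light chains Slc7a7 (1.24, adjusted p = 0.00021), which exports basic amino acids with Slc3a2, and Slc7a8 (1.16, adjusted p = 0.000508), a neutral amino acid light chain. The glutamine carriers Slc1a5 (1.21, adjusted p = 0.000551) and Slc38a1 (1.03, adjusted p = 0.000316) and the creatine carrier Slc6a8 (1.02, adjusted p = 0.002) rose too. All 3 model livers were above all 3 control livers for each of these genes. Slc38a1 was not past the fold cutoff without control 2 or model 2 (down to 0.96), nor Slc6a8 without control 2 or model 1 (down to 0.92). With median-ratio scaling none of these 5 carriers was DE, and the count was 2 in place of 6, Slc1a2 and Slc6a12. Slc7a6, named after its values were seen, a light chain of basic amino acids, was at 0.154 to 0.186 FPKM in control and 1.07 to 1.43 FPKM in model livers and was not past the fold cutoff. With 0.1 or 0.5 FPKM added in place of 1 before taking logs, Slc7a6 was past the cutoffs. It reached the filter on low levels only through the model livers.

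With silibinin, 1 of the 31 transporters was DE against model, a share near the 3.25% of all genes that were DE and lower. It was the glycine carrier Slc6a9, lower at 4.88, 5.88 and 8.59 FPKM against 13.5, 13.2 and 14.7 FPKM (-1.02, SE 0.194, adjusted p = 0.00715 by limma). That count was 0 with scaling and without silibinin 1, silibinin 2 or model 3. With phloridzin 0 were DE against model, beside 0.6% of all genes DE and higher and 2.92% DE and lower. The count was also 0 at limma's unadjusted p under 0.05 with the fold cutoff kept. It was 2 without phloridzin 1 (Slc1a2 and Slc6a9) and 1 without model 2 (Slc6a9). Without the fold cutoff Slc7a6, Slc6a9 and Slc25a44 were past the adjusted p cutoff. Between the drug groups the count was 0 by adjusted and by unadjusted p, and also without the fold cutoff. Against control Slc6a8 was higher with silibinin in 3 of 3 livers (1.04, adjusted p = 0.0127 by limma). This call was lost without control 2, silibinin 1 or silibinin 2 (0.96 to 1.18 over the leave-outs) and with scaling. With silibinin 1 of the 31 was thus DE and higher and 1 lower (Slc1a2), beside 1.74% and 0.243% of all genes. With phloridzin Slc1a2, lower, was the only DE gene of the list, beside 2.74% of all genes DE and higher and 0.289% DE and lower. The median change of the 31 genes was 0.24 for model against control, 0.01 for silibinin against model (-0.10 without silibinin 3) and -0.11 for phloridzin against model, beside 0.34, -0.15 and -0.11 for all genes.

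By family, genes DE and higher in model than in control livers were 2 of 4 tested for SLC7, 1 of 8 for SLC38 and SLC36, 1 of 2 for SLC1, 1 of 5 for SLC6, and 0 of 4 and 0 of 8 for the aromatic and lysosomal and the mitochondrial carriers, beside 9.42% of all genes. For the last 2 families limma also gave 0 at an unadjusted p under 0.05 with the fold cutoff kept. Without the fold cutoff Ctns and Mfsd12 of the aromatic and lysosomal carriers were past the adjusted p cutoff, and no mitochondrial carrier was. The number tested for SLC7 depends on the filter on low levels. Slc7a6 averaged 0.386 FPKM without the model livers, and Slc7a4 0.447 and 0.498 FPKM without the silibinin and the phloridzin livers. Neither was among those called. The other SLC1 gene tested, Slc1a2, was the only one DE and lower.

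**Figure D5:**
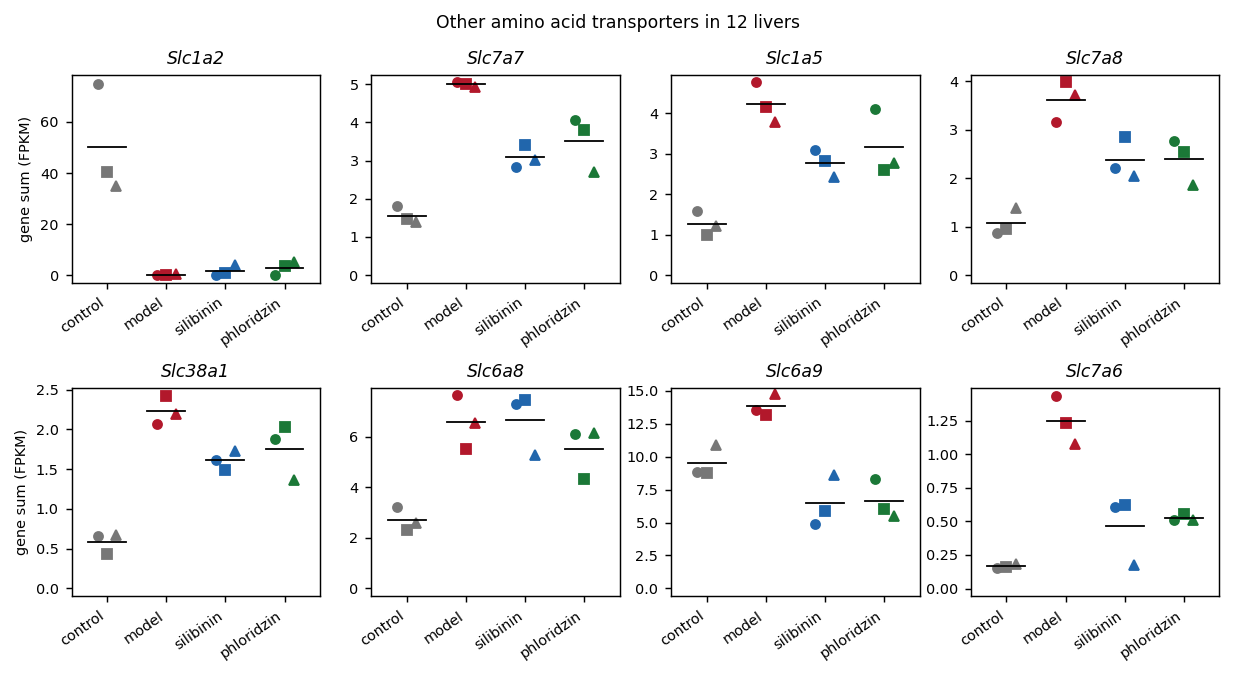
FPKM (vertical axis, linear and separate for each gene) of Slc1a2, Slc7a7, Slc1a5, Slc7a8, Slc38a1, Slc6a8, Slc6a9 and Slc7a6 in the 12 livers by group, with symbols for replicates and a line for the group mean. Slc1a2 is at 34.8 FPKM or more in the control livers and at 5.32 FPKM or less in all others.

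ATF4, its partners and textbook target genes outside the transporters were mostly higher in the model group: 11 of 15 tested were DE and higher than in control, and 0 lower, beside 9.42% and 1.08% of all genes. This list and the NRF2 and cysteine lists below were chosen with earlier results of these livers known. Their counts and medians beside all genes are therefore a description. Adjusted p-values of single genes are from limma's fit across all genes. Atf3 rose from 0.306 to 45.2 FPKM (group means, log2 fold change 5.14, adjusted p = 2.09e-06) and Psat1 from 0.245 to 19.9 FPKM (4.07, adjusted p = 0.000229). Ddit3 rose by 3.32 (adjusted p = 0.00214), Trib3 by 3.27 (adjusted p = 8.93e-06) and Ppp1r15a by 1.78 (adjusted p = 0.000194). Nupr1 was 2.46 higher and is given without a p-value, for the reason below. The calls of Atf3, Psat1, Ddit3, Trib3 and Ppp1r15a held without any 1 liver. Among the other DE genes the call of Ddit4 was lost in 4 of the 12 leave-outs (0.96 at the least) and that of Asns without control 2 (0.91). Nupr1 and Phgdh, both counted among the 11, reached the filter on low levels only through the model livers (the other 9 averaged 0.449 and 0.434 FPKM), as Slc7a11 and Slc7a1 did, and had to differ to be tested. Their part in the counts of this list therefore supports nothing. Against model, 10 of the 15 were DE and lower with silibinin, beside 3.25% of all genes, and 10 with phloridzin, beside 2.92%, Nupr1 and Phgdh among them in both. With silibinin the call of Asns was lost without any 1 model or silibinin liver (-1.27 to -1.05) and that of Cebpb without model 2 (-0.87). With phloridzin the call of Phgdh was lost without model 1, model 3, phloridzin 2 or phloridzin 3 (-0.83 at the least) and that of Cebpb without model 2 (-0.86). Trib3 changed by -3.53 with silibinin (adjusted p = 7.92e-06) and by -3.32 with phloridzin (adjusted p = 1.38e-05). Atf4 itself held 10.3, 15.1 and 15.7 FPKM in model livers and 4.01, 3.72 and 3.29 FPKM in phloridzin livers (-1.63, adjusted p = 0.00542). In the silibinin livers it held 6.17, 3.63 and 10.6 FPKM, silibinin 3 within the range of the model livers, and was not past the fold cutoff (-0.99). The list's median was 1.38, -1.20 and -1.31 in these comparisons, beside 0.34, -0.15 and -0.11 for all genes. Against control, Atf3 was the only DE gene of the list in either drug group (1.09, adjusted p = 0.0337 with silibinin, and 1.19, adjusted p = 0.0197 with phloridzin). Of all genes 1.74% were DE and higher with silibinin and 2.74% with phloridzin. The calls of Atf3 were lost in 7 and 4 of the 12 leave-outs respectively, those without a control liver among them. Psat1 was not DE there, although at 0.978 to 3.602 FPKM with silibinin and 1.17 to 7.57 FPKM with phloridzin every drug-treated liver was above the control livers (0.113 to 0.346 FPKM).

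NRF2 and its textbook target genes held 1 DE gene among 12 tested in model against control, a share near the 9.42% of all genes that were DE and higher. Hmox1 was higher in model than control livers (12.5 to 47.9 FPKM, 1.84, adjusted p = 0.00144) and lower with silibinin than in the model group (-1.36, adjusted p = 0.0147), a call lost without model 2, silibinin 1 or silibinin 2 (-1.61 to -1.16 over the leave-outs). With phloridzin Hmox1 was at 28.5, 25.8 and 16.4 FPKM and was not DE against model. Of the 12 genes 1 was thus DE and lower with silibinin, beside 3.25% of all genes, and 0 with phloridzin, beside 2.92%. The list's median change was 0.77 for model against control, -0.56 for silibinin against model and -0.13 for phloridzin against model, beside 0.34, -0.15 and -0.11 for all genes. Without phloridzin 1, whose Gclc, Nqo1 and Srxn1 levels are given above, the last was -0.58, beside -0.18.

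Genes of cysteine and glutathione metabolism had 2 of 19 tested DE and higher in the model group and 3 lower, beside 9.42% and 1.08% of all genes. The share of higher genes was thus near that of all genes. Chac1, which degrades glutathione (1.38, adjusted p = 0.000306), and the glutathione synthase gene Gss (1.12, adjusted p = 0.0145) rose. Chac1 is also a gene of the ATF4 list and is counted in both lists. Mat1a (-1.41, adjusted p = 0.0271), Cth, which makes cysteine from cystathionine (-1.05, adjusted p = 0.0489), and Cdo1, which oxidises cysteine (-1.03, adjusted p = 0.0102), fell. With silibinin Cth (1.43, adjusted p = 0.0286) and Cdo1 (1.08, adjusted p = 0.0172) were higher than in the model group and Chac1 lower (-1.49, adjusted p = 0.000357). These were 2 of 19 higher and 1 lower, beside 0.745% and 3.25% of all genes. With phloridzin Cth (1.65, adjusted p = 0.0171), Cdo1 (1.09, adjusted p = 0.0189) and Gpx4 (2.47, adjusted p = 0.0494) were higher and Chac1 lower (-1.31, adjusted p = 0.000841). These were 3 of 19 higher and 1 lower, beside 0.6% and 2.92% of all genes. Gpx4 varied within groups, with 37.5, 149 and 41.2 FPKM in control, 107, 24.1 and 22.1 FPKM in model, 70.02, 64.7 and 244 FPKM in silibinin and 269, 259 and 152 FPKM in phloridzin livers, so that silibinin 3 lay within the range of the phloridzin livers, and it was DE in only 3 of the 12 leave-outs. Cth was DE for model against control in 4 of the 12 leave-outs (-1.23 to -0.92) and Mat1a in 6, lost without any 1 control or model liver. The Cdo1 call in that comparison was lost without model 1 or model 2 (-0.90 at the least). The calls of Cth and Cdo1 against model were each lost in 4 leave-outs with silibinin and in 4 with phloridzin, model 1 and model 2 among them. The list's median was -0.23, 0.37 and 0.29, beside 0.34, -0.15 and -0.11 for all genes.

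Cell type marker sums also differed between groups, and their part in the transporter levels was not tested. Stellate cell and myofibroblast genes, led by Col3a1, summed to 25.1 to 34.6 FPKM in control and 144 to 178 FPKM in model livers. In every control liver Reln was the most abundant of them, at 12.2 to 16.0 FPKM. In silibinin 1, 2 and 3 the sum was 169.6, 163 and 81.6 FPKM, and in phloridzin 1, 2 and 3 it was 229, 96.0 and 75.6 FPKM. Biliary genes summed to 15.4 to 21.1 FPKM in control, 51.5 to 59.6 FPKM in model, 44.3 to 56.8 FPKM in silibinin and 60.03 to 62.5 FPKM in phloridzin livers. Spp1 was the most abundant of them in most livers, but Tff3, named above for its likeness to Slc3a1, was above it in silibinin 3 and phloridzin 2 and 3. Spp1 alone held 42.3 to 49.9 FPKM in model livers, 43.3, 44.9 and 17.1 FPKM in silibinin livers and 46.7, 22.04 and 18.3 FPKM in phloridzin livers. Macrophage genes, led by Lyz2, summed to 144 to 249 FPKM in control, 389 to 623 FPKM in model, 448 to 589 FPKM in silibinin and 388 to 739 FPKM in phloridzin livers. In control 1 and 2 Cd5l (56.6 and 101 FPKM) was above Lyz2 (31.1 and 67.1 FPKM).

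Hepatocyte genes summed to 21072 to 26094 FPKM in control, 19728 to 29754 FPKM in model, 22825 to 36998 FPKM in silibinin and 24718 to 33442 FPKM in phloridzin livers, all overlapping. Alb was the larger part of this sum in every liver. Of the other genes, named after their values were seen, Tdo2, G6pc, Asgr1 and Serpina1a were lower in every model liver than in every control liver. Tdo2, which breaks down tryptophan, held 342 to 430 FPKM in control, 94.9 to 234 FPKM in model, 372 to 443 FPKM in silibinin and 457 to 517 FPKM in phloridzin livers. G6pc, which releases glucose, held 100.4 to 175 FPKM in control, 60.1 to 83.8 FPKM in model, 90.5 to 193 FPKM in silibinin and 102 to 253 FPKM in phloridzin livers. Asgr1 held 220 to 312 FPKM in control and 198 to 205 FPKM in model livers, and Serpina1a 950 to 1194 FPKM in control and 61.8 to 660 FPKM in model livers. For all other hepatocyte genes, Alb included, the control and model livers overlapped. Endothelial genes, led by Clec4g, had 88.9 to 103 FPKM in control, 104 to 125 FPKM in model, 58.9 to 121 FPKM in silibinin and 98.0 to 125 FPKM in phloridzin livers, the lowest of them silibinin 3. Lymphocyte and neutrophil genes, led by S100a8, had 9.81 to 21.6 FPKM in control, 27.0 to 68.5 FPKM in model, 13.1 to 28.3 FPKM in silibinin and 27.8 to 79.6 FPKM in phloridzin livers. Pancreatic acinar genes, 7 of 10 in the table, had 4.88 to 11.7 FPKM over all livers, mostly Cela1, with the defining genes Cpa1 and Cpb1 at 0 in every liver.

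Genes that differ between the sexes in mouse liver are given because all mice are labelled male, and their part in the transporter levels was not tested. Female-biased genes summed to 11.4 to 23.4 FPKM in control, 5.50 to 11.2 FPKM in model, 11.4 to 34.1 FPKM in silibinin and 6.82 to 43.3 FPKM in phloridzin livers, led by Cyp17a1, which held 2.34 to 38.2 FPKM. Male-biased genes, led by Mup20, summed to 3550 to 4290 FPKM in control, 1988 to 2696 FPKM in model, 1876 to 2663 FPKM in silibinin and 3112 to 4905 FPKM in phloridzin livers, so every model and silibinin liver was below every control and phloridzin liver. Xist was at 0 in every liver while the Y-linked genes Kdm5d, Uty and Eif2s3y were at 2.22 FPKM or more and Ddx3y at 0.313 FPKM or more.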

How the data were processed

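The authors deposited FPKM values for each transcript and liver. No header or text names the unit, which was read from the values. The submitters' processing notes name bcl2fastq, FastQC 0.11.5, HISAT2 2.1.0, StringTie 1.3.3b and DESeq 1.28.0 with build mm10, without roles, and libraries were made with the NEB Next Ultra kit. Gene sums were taken over all transcripts of a symbol. Limma 3.58.1 (R 4.3.3; variance trend, 4 group means, all 12 livers, two-sided) was run on log2(FPKM + 1) for genes with a mean of at least 0.5 FPKM, with Benjamini-Hochberg adjustment over all 13158 genes, and was tested on simulated data. Transcript types and lengths came from GENCODE, promoters from RefSeq (GRCm38.p6). The members and lists were chosen with earlier results of these data known. DE genes of the other transporter lists were named up to 8 per comparison and those of the ATF4, NRF2 and cysteine lists up to 6, largest change first, and the 5 genes of highest correlation stand for likeness. Alternatives changed the pseudocount, filter, scaling, samples in the fit, replicate block, cutoffs, gene sum and variance trend, or left out livers, and the named genes were refitted without each liver in turn. Counts at an unadjusted p under 0.05 kept the fold cutoff. Medians of the lists without phloridzin 1 or silibinin 3 were added after seeing the data.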

Additional observations from a re-analysis of the deposited data

Results flagged for a closer look

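Noncoding transcripts at the Slc7a11 gene that are not part of its gene sum were above 0 in the model livers and at 0 in all control livers, which is why they are listed here. NONMMUT042943.2, at chr3:50365444-50368833 within the 3′ end of Slc7a11 and on its strand, held 12.4, 0.544 and 0.138 FPKM in model livers 1, 2 and 3, and 0.047 to 0.271 FPKM in the silibinin and phloridzin livers. Model 1 is the liver with the lowest Slc7a11 sum of its group. NONMMUT042946.2, near the start of the gene, held 0.924, 0.25 and 0.441 FPKM in the model livers. In the silibinin and phloridzin livers it held 0 to 0.281 FPKM, with phloridzin 1 above model 2. NONMMUT042945.2, within the gene, held 0.768, 0.702 and 0.462 FPKM in the model livers. In the silibinin and phloridzin livers it held 0.00902 to 0.0538 FPKM. They lie on the strand of Slc7a11, and how fragments were shared between them and Slc7a11 was not tested. Groups of 3 livers were not tested for outlying livers.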

How the results depend on the processing

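Of 450 counts under other settings, 365 were within 1.5 times the count reported and 85 were not, and no change of a transporter past the cutoffs reversed. Of 1374 changes of the 10 genes, 1298 moved by less than the spread between livers and 76 by more. Over the 23 alternatives, model against control stayed between 2.39 and 5.90 for Slc7a11, 1.61 and 2.24 for Slc3a2, 1.58 and 3.59 for Slc7a1 and 0.93 and 1.65 for Slc7a5. Unless the setting's construction shows it, the cause of the differences below was not tested.

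DE genes, model against control, numbered 1382, with 4594 without the fold cutoff, 2596 with a pseudocount of 0.1, 837 with the most abundant coding transcript for each gene, 1363 with the replicate block and 1247 to 1454 without 1 liver. DE genes, silibinin against model, numbered 526, with 1849 without the fold cutoff, 508 with the replicate block and 424 to 568 without 1 liver. DE genes, phloridzin against model, numbered 463, with 1691 without the fold cutoff, 702 with the pseudocount of 0.1, 297 with the most abundant transcript, 449 with the replicate block and 367 to 638 without 1 liver. DE genes, phloridzin against silibinin, numbered 3, with 0 when only these groups were fitted, 5 with the most abundant transcript, 88 at an unadjusted p under 0.05, 3 with the replicate block and 1 to 6 without 1 liver. DE genes, silibinin against control, numbered 261, with 661 without the fold cutoff, 828 and 456 with pseudocounts of 0.1 and 0.5, 84 with the most abundant transcript, 512 unadjusted, 237 with the replicate block and 101 (without silibinin 1) to 400 (without phloridzin 1). DE genes, phloridzin against control, numbered 398, with 1051 without the fold cutoff, 1103 and 710 with the pseudocounts, 249 with scaling, 143 when only these groups were fitted, 125 with the most abundant transcript, 682 unadjusted, 347 with the replicate block and 214 (without control 1) to 635 (without phloridzin 3).

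Of the 10 genes, Slc7a1 was past the cutoffs in both drug groups against control without the fold cutoff and with a pseudocount of 0.1, which made the counts 1 with silibinin and 2 with phloridzin. For phloridzin against control the count was 0 with no filter on low values and with the most abundant transcript. Phloridzin against silibinin had 1 unadjusted, Slc3a1. Without 1 liver the counts were 4 to 8 for phloridzin against model, 0 to 1 for phloridzin against silibinin and 0 to 1 for phloridzin against control. With the replicate block they were 5, 4, 5, 0, 0 and 1, as reported.

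The other transporters in model against control numbered 11 without the fold cutoff, 2 with scaling or the most abundant transcript and 3 with coding transcripts alone. Silibinin against model had 3 without the fold cutoff, 2 with a pseudocount of 0.1 and 0 with scaling, and phloridzin against model 3, and 1 with either pseudocount. Silibinin against control had 6 without the fold cutoff, 5 with a pseudocount of 0.1, and 1 with scaling, coding transcripts or the most abundant transcript. Phloridzin against control had 6 without the fold cutoff, 5 and 3 with the pseudocounts, 2 unadjusted and 0 when only these groups were fitted. Without 1 liver they were 0 to 1 for silibinin against model, 0 to 2 for phloridzin against model, 1 to 3 for silibinin against control and 1 to 2 for phloridzin against control.

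Without silibinin 3 and phloridzin 1 together, a setting chosen after seeing the data, DE genes, phloridzin against silibinin, numbered 22 and DE genes, silibinin against control, 556. Of the 10 genes 8 were past the cutoffs for phloridzin against model, 1 between the drugs (Slc3a1) and 1 for silibinin against control (Slc1a4), and 2 other transporters for phloridzin against model. The replicate numbers do not pair the livers: 1 of 18 pairs of the same number had deviations correlated above 0.1 (r from -0.09 to 0.10), and 2 of 12 livers correlated best with their own number.

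With 3 livers a group, a value that rests on 1 liver, as for Slc3a1 with silibinin, has no second measurement, and where a liver is left out the remaining pair is assumed to vary like the other groups. The coding transcript of Slc7a11 had at most 8 fragments in a control liver, so its level there is imprecise. The division of fragments between transcripts, named or assembled, was made before deposit and comes with no error.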

Other observations

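Other genes also jumped between livers of a group. Ttr, a plasma protein gene of hepatocytes, picked after its values were seen, held 39.8 FPKM in control 1 and 10.3 FPKM in phloridzin 1, against 706 to 2530 FPKM in the other livers. Csad, which makes taurine from cysteine products, held 124 FPKM in silibinin 3 and at most 64.2 FPKM elsewhere. A second assembled transcript, MERGE.16475.16, ran opposite to Slc3a1 less closely (r = -0.88), at 0.406 FPKM in silibinin 3 and 1.60, 0.255 and 1.55 FPKM in the phloridzin livers against 2.59 to 6.49 FPKM in the others.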
